A study of Mus musculus with 2 samples.

Results

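Platelet transcripts were followed in single-cell RNA sequencing of mouse blood. A droplet barcode was taken as a carrier when it held at least 200 UMIs (unique molecular identifiers, 1 per captured RNA molecule), at least 3 UMIs of the platelet chemokine genes Ppbp and Pf4 together, and at most 50% haemoglobin UMIs. This rule found 169 carriers among 12807 barcodes of at least 200 UMIs, 140 of them mutant and 29 wildtype. Carriers of fewer than 800 UMIs numbered 65 (mutant) and 8 (wildtype), and carriers of 800 or more UMIs numbered 75 and 21. The mice were 10-week-old C57Bl/6 females. Mutant mice carried the V377I and del91 alleles of Mvk, the gene of mevalonate kinase, and controls were wildtype. Blood of 3 mice per genotype was pooled into 1 library, so genotype, pool and library cannot be told apart. In both libraries the blood had passed a Ficoll gradient and red cell lysis, and events without DAPI and Ter119 stain were sorted, a gate that names no platelet antigen.

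Platelets are fragments shed by megakaryocytes. They carry no nucleus and live on RNA packed into them by the parent cell, together with granules of chemokines and clotting proteins. Adhesion receptors let them bind collagen, von Willebrand factor and fibrinogen, and activated platelets also bind leukocytes, monocytes and neutrophils in particular. Mevalonate kinase works early in isoprenoid synthesis, which supplies the lipid anchors of small GTPases such as Rap1, a switch of platelet integrins.

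Depth was 14513059 UMIs for the mutant and 15385199 UMIs for the wildtype library. In the first, 1854 barcodes of 200 to under 800 UMIs and 4152 of 800 or more had at most 50% haemoglobin, and in the second 1054 and 5234. With 1 library per genotype no test could be made. Intervals are exact 95% intervals that cover counting error only, and the limit given for a count of 0 is that of 3 counts. Free RNA, read from barcodes of at most 20 UMIs, held Ppbp and Pf4 at 303 CPM (counts per 1000000 UMIs; 252 to 363) in the mutant and 102 CPM (75.0 to 136) in the wildtype library. Were every UMI of a barcode free RNA, a mutant barcode of the median 1953.5 UMIs (800 or more) would hold 0.593 UMIs of both genes, and a wildtype barcode of 2032.5 UMIs 0.207. Below 800 UMIs the same reckoning gave 0.0997 and 0.0320 UMIs. Carriers held 3642 of the 7367 Ppbp and Pf4 UMIs of the mutant library (49.4%) and 312 of 1494 in the wildtype library (20.9%). Of the barcode sequences, 60 had at least 200 UMIs in both libraries, and none of these was a carrier in both.

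Carriers took a larger share of barcodes in the mutant library at both depths. Below 800 UMIs they were 3.51% of mutant barcodes (2.72 to 4.45) and 0.759% of wildtype barcodes (0.328 to 1.49), a ratio of 4.62 (2.21 to 11.1). At 800 or more UMIs they were 1.81% (1.42 to 2.26) and 0.401% (0.249 to 0.613), a ratio of 4.5 (2.74 to 7.69). The level of both genes in free RNA was higher in the mutant library as well. With the free RNA level of each library subtracted from both genes, the ratio below 800 UMIs was 4.05 (1.92 to 9.83). At 800 or more UMIs it was then 5.31 (2.93 to 10.3). The cause of the difference between the libraries was not tested. The intervals of both ratios left out 1.

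**Figure D1:**
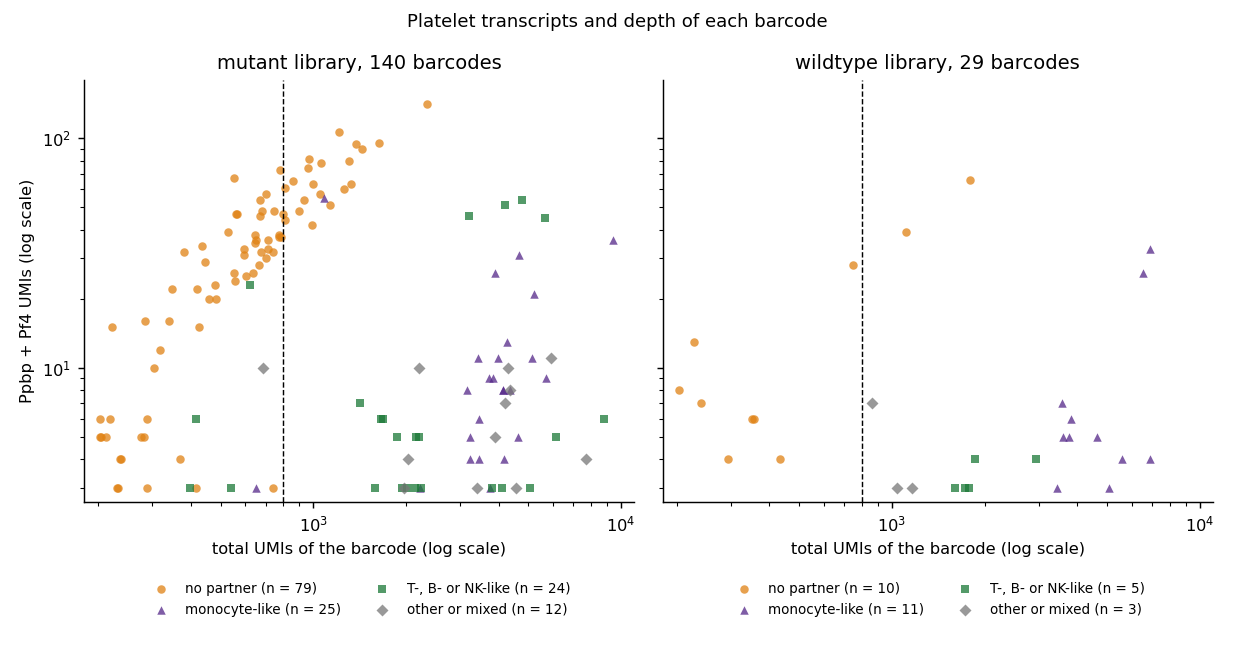
UMIs of Ppbp and Pf4 in each carrier (vertical, log axis) against its total UMIs (horizontal, log axis), by library and by the kind of leukocyte markers it held, with the dashed line at 800 UMIs. Carriers with no partner reach the highest Ppbp and Pf4 counts and continue past 800 UMIs, up to 2349 UMIs in the mutant library.

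The 2 rule genes lie next to each other: Ppbp at chr5:90768518-90770063 and Pf4 at chr5:90772435-90773383, both on the plus strand (GRCm38, the assembly that mm10 also names). Their products are CXC chemokines stored in alpha granules. In carriers below 800 UMIs, mutant barcodes held a median of 14 Ppbp UMIs (0 to 61) and 7 Pf4 UMIs (0 to 26). The wildtype barcodes held a median of 5 Ppbp UMIs (1 to 18) and 2.5 Pf4 UMIs (0 to 10). These values chose the carriers and are given as a description. Just outside the rule, with 2 UMIs of both genes, lay 7 mutant and 4 wildtype barcodes, in which other platelet genes took a median of 1.38% and 1.49% of UMIs. Just inside, with 3 UMIs, lay 8 mutant barcodes at 1.68% and 0 wildtype barcodes. With 4 UMIs the median was 3.83% in 3 mutant and 3.08% in 2 wildtype barcodes. Barcodes with 20 or more UMIs of both genes, 38 mutant and 1 wildtype, were at 16.5% and 15.8%.

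Genes that the rule did not use carried the platelet label. The share of UMIs in 4 platelet lists (114 genes for granule proteins, receptors, signalling and cytoskeleton, without Ppbp and Pf4) had a median of 15.1% (0.862 to 21.0) over the 65 mutant carriers below 800 UMIs. In the 8 wildtype carriers the median was 14.6% (0.693 to 18.0). Barcodes of the same depth with 0 UMIs of both chemokine genes had medians of 0.455% and 0.433%. Summed over carriers, the lists held 4457 of 32591 UMIs in the mutant library (13.7%) and 342 of 2853 in the wildtype library (12%), against 0.715% and 0.763% in free RNA. A share of at least 10% was seen in 50 of the 65 mutant and 6 of the 8 wildtype carriers. At least 1 UMI of Gng11, Clec1b, Gp9 or Itga2b, the other defining markers, was found in 59 of 65 and in 8 of 8.

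**Figure D2:**
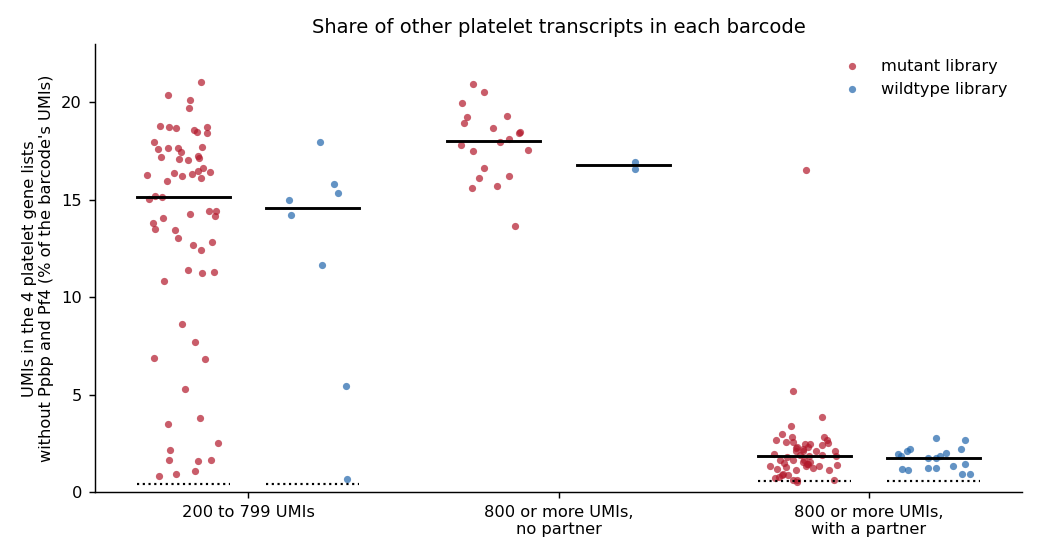
Share of UMIs (percent) in the 4 platelet lists without Ppbp and Pf4, 1 point per carrier, for carriers under 800 UMIs and for carriers of 800 or more UMIs with no partner and with a partner, by library. Solid lines are the carriers' medians and dotted lines the medians of barcodes with 0 Ppbp and Pf4 UMIs; most carriers without a partner lie above 10%, and carriers with a partner lie mostly near 2%.

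Since 8 wildtype carriers stand behind every wildtype value below 800 UMIs, they are given singly. The 5 clearest held 204, 228, 240, 356 and 747 UMIs, with platelet list shares of 14.2%, 15.4%, 15%, 18.0% and 15.8%. A barcode of 352 UMIs had 11.6% and a mitochondrial share of 15.1%. Of the last 2, a barcode of 293 UMIs had 5.46% and one of 433 UMIs 0.693%, with mitochondrial shares of 43.0% and 40.4%. Thus 1 wildtype carrier had no more platelet list RNA than free RNA does.

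Other RNA in these carriers also set them apart from barcodes of the same depth. Malat1, a nuclear long noncoding RNA, took a median of 0.295% of UMIs in mutant and 0.409% in wildtype carriers, against 13.5% and 13.7% in barcodes without Ppbp and Pf4. Mitochondrial UMIs took a median of 1.76% and 2.65%, against 17.7% and 18.7%. A minority went against the label of platelets alone. The 15 mutant carriers with under 10% platelet list RNA had medians of 8.82% mitochondrial UMIs and 13.7% Malat1. Partner markers were read as follows: a barcode was assigned to 1 of 7 leukocyte lists when at least 3 UMIs from at least 2 genes of the list were present and at least 2 times the UMIs of the next list, and was called mixed where the next list came closer. Below 800 UMIs, 59 of 65 mutant and all 8 wildtype carriers had no partner. The remaining mutant ones were 3 B-like, 1 monocyte-like, 1 NK-like and 1 mixed barcode.

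Among granule and secreted proteins, 18 of the 23 genes had a UMI in the carriers below 800 UMIs. The list took 2.99% of mutant (2.81 to 3.18) and 2.1% of wildtype UMIs (1.61 to 2.70) without the 2 chemokines, against 0.0998% and 0.112% in barcodes without them. Ctla2a, a cathepsin inhibitor homologue that has a near-identical paralogue and is therefore uncertain, was at 15710 CPM (14378 to 17132) in mutant and 8062 CPM (5110 to 12096) in wildtype carriers, against 193 and 150 CPM without Ppbp and Pf4. Clu, a secreted chaperone of alpha granules, was at 2762 CPM in 41 of 65 mutant carriers and 1753 CPM in 4 of 8 wildtype carriers, against 8.12 and 2.77 CPM. Thbs1, the adhesive granule protein thrombospondin, was at 1473 and 1753 CPM, against 8.12 and 5.54 CPM. Srgn, the core of granule proteoglycans, is made by many blood cells and was nearer to the other barcodes, at 3222 and 3505 CPM against 540 and 668 CPM. Vwf, the von Willebrand factor, gave 8 UMIs and F13a1, a clot-stabilising transglutaminase, 11 UMIs in mutant carriers. Neither gave a UMI in wildtype carriers, which at their depth allows up to 1052 CPM.

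Receptors of adhesion and activation were the list farthest above its background in the mutant library, with 28 of 33 genes detected. They took 4.25% of mutant (4.03 to 4.47) and 3.82% of wildtype UMIs (3.15 to 4.59), against 0.0727% and 0.112%. Cd9, a tetraspanin also present on B cells, was at 15648 CPM (14320 to 17067) and 15072 CPM (10908 to 20302), against 151 and 205 CPM. Itga2b (chr11:102453297-102470122, minus strand) encodes the integrin chain that pairs with Itgb3 as fibrinogen receptor. It was found in 48 of 65 mutant carriers at 4234 CPM (3557 to 5003) and in 6 of 8 wildtype carriers at 3856 CPM (1925 to 6899), against 8.12 and 5.54 CPM. Itgb3 itself gave 13 and 1 UMIs.

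The receptor for von Willebrand factor is built from Gp1ba, Gp1bb, Gp9 and Gp5. Gp9 (chr6:87778072-87779768, plus strand) was at 3529 CPM (2913 to 4236) in mutant and 2103 CPM (772 to 4577) in wildtype carriers, against 11.4 CPM and 0 UMIs. Gp5 was at 1749 CPM (1325 to 2266) and 2804 CPM (1211 to 5525). Gp1bb (chr16:18620317-18622403, minus strand) overlaps Sept5 on the same strand, so its reads cannot be wholly told from that gene, and it was at 3989 CPM (3333 to 4736) and 1402 CPM (382 to 3590). Gp1ba gave only 12 and 0 UMIs. Clec1b (chr6:129397297-129409335, plus strand), the podoplanin receptor CLEC-2, was at 3130 CPM (2552 to 3799) and 4907 CPM (2683 to 8233), against 8.12 and 5.54 CPM. Its annotation overlaps Clec9a. Gp6, the collagen receptor, was at 890 and 701 CPM. Selp, the P-selectin by which activated platelets hold leukocytes, gave 4 UMIs in mutant carriers and 0 in wildtype carriers.

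**Figure D3:**
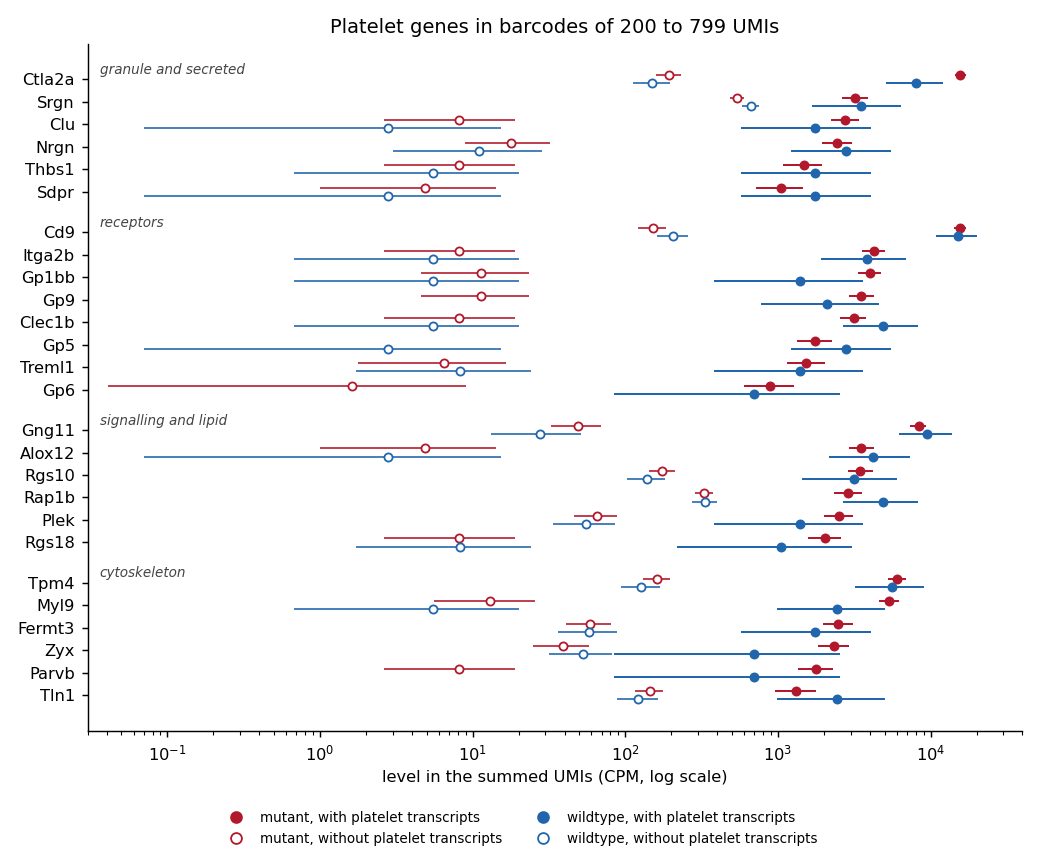
Level in CPM (log axis) of 26 platelet genes in carriers under 800 UMIs (filled) and in barcodes of the same depth with 0 Ppbp and Pf4 UMIs (open), by library, with exact 95% counting intervals. An open point is missing where no UMI was found; the carriers lie well to the right for the receptors Itga2b, Gp9 and Clec1b, and closer for Srgn and Rap1b.

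Signalling and lipid genes took 3.85% and 4.10% of UMIs, against 0.229% and 0.201%, and 31 of 39 were detected. Gng11 (chr6:4003904-4008445, plus strand), a G protein gamma subunit rich in platelets, had a median of 3 UMIs (0 to 15) per mutant and 2 UMIs (0 to 12) per wildtype carrier. Its level was 8346 CPM (7383 to 9399) and 9464 CPM (6237 to 13769), against 48.7 and 27.7 CPM. Alox12, the 12-lipoxygenase of platelets, was at 3529 and 4206 CPM, against 4.87 and 2.77 CPM. Rgs18, a brake on G protein signalling, was at 2025 and 1052 CPM. Rap1b, the small GTPase that activates integrins, is also made by leukocytes and was at 2884 CPM (2331 to 3530) and 4907 CPM (2683 to 8233), against 329 and 332 CPM.

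All 21 cytoskeletal genes were detected, at 2.59% and 1.96% of UMIs, against 0.161% and 0.148%. Tpm4, a tropomyosin of platelets, was at 6045 CPM (5230 to 6950) and 5608 CPM (3206 to 9107). Myl9, a myosin light chain, was at 5339 CPM (4575 to 6194) and 2454 CPM (986 to 5055). Tubb1, the beta-tubulin particular to megakaryocytes and platelets, gave only 4 and 0 UMIs. Transcription factors of the megakaryocyte lineage were sparse: the list of 12 genes gave 59 UMIs in mutant and 7 in wildtype carriers, led by Nfe2 with 14 and 4. Gata1, which directs megakaryocyte maturation, gave 11 and 0. None of 12 cell cycle genes gave a UMI in either library.

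Markers of other blood cells were few in the carriers below 800 UMIs. Dendritic markers gave 0 UMIs for 13 genes. B markers gave 33 and 0 UMIs, T markers 18 and 1, NK markers 10 and 6, and basophil markers 7 and 1, the last all from Gata2, which megakaryocytes also express. Monocyte markers gave 170 and 3 UMIs, of which Lyz2, the myeloid lysozyme, made up 152 and 3. Lyz2 has the near-identical copy Lyz1 and is uncertain. It was at 4664 CPM in mutant carriers, with a UMI in 48 of 65, against 278 CPM in barcodes without Ppbp and Pf4 and 1049 CPM in free RNA. In wildtype carriers it was at 1052 CPM, against 316 and 662 CPM. Erythroid markers gave 373 and 19 UMIs, mostly haemoglobin.

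Which genes led the carriers over barcodes of the same depth without Ppbp and Pf4 was read by a fixed rule: at least 50 UMIs in both sums together, a ratio of at least 2 in either direction and an interval that leaves out 1. Of 898 genes measured in both libraries, 39 were higher in both (4.34%) and 16 lower (1.78%). The carriers and their comparison groups were chosen by Ppbp and Pf4, so these counts are a description. Platelet list genes made up 16 of the measured, 11 of the higher and 0 of the lower genes. Among the named leading genes outside the lists, Ywhah, a 14-3-3 adaptor, was higher by 75.4 times (60.1 to 95.5) in the mutant and 109 times (68.9 to 173) in the wildtype library. Gpx4, the peroxidase of membrane lipids, was higher by 43.3 and 27.7 times. The iron store genes Ftl1 and Fth1 were higher by 16.2 and 11 times in the mutant library and by 13.6 and 9.46 times in the wildtype library. Tmsb4x, the actin-binding thymosin beta 4, was higher by 15.1 and 8.91 times. Tsc22d1, a leucine zipper gene counted on the immediate early list, made up 370 of that list's 401 UMIs in mutant carriers and 30 of 33 in wildtype carriers. Of the 16 lower genes, 8 encoded ribosomal proteins, and the others included Malat1, the antigen presentation genes Cd74, H2-Aa and H2-Ab1, and the leukocyte antigen Cd52.

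Mvk was not detected in carriers below 800 UMIs. The 0 UMIs allow up to 92.1 CPM for mutant and 1052 CPM for wildtype carriers, while barcodes without Ppbp and Pf4 were at 3.25 and 2.77 CPM, so its level was not measurable at this depth and does not check the labels. Of 25 genes of sterol synthesis, 5 had a UMI, 18 UMIs in mutant and 0 in wildtype carriers, too few to compare. Prenylated GTPases and prenylation enzymes gave 608 and 67 UMIs from 20 of 28 genes, or 1.87% and 2.35% of UMIs, against 0.295% and 0.305%. That list holds Gng11 and Rap1b, which are platelet list genes too. Rab27b, a GTPase of granule secretion, was at 798 CPM in mutant and 2103 CPM in wildtype carriers, and 0 UMIs of it were found in the comparison barcodes. Rhoa, a GTPase of the actin cytoskeleton, gave 7 and 0 UMIs.

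Between the libraries, few platelet genes of carriers below 800 UMIs differed beyond counting error, and the 2853 wildtype UMIs set wide limits. With the same rule of 50 UMIs and at least 2 times, 104 genes were measured, of which 9 were higher (8.65%) and 8 lower (7.69%) in the mutant library. Of the 29 measured platelet list genes, 3 had an interval above 1, against 13.5% of all measured genes, and 0 had one below 1. Their median log2 ratio was 0.06, and that of all measured genes 0.07. Ctla2a was 1.95 times (1.28 to 3.10), Gp1bb 2.85 times (1.08 to 10.6) and Myl9 2.18 times (1.03 to 5.49) the wildtype level. Ratios whose interval held 1 were 1.04 for Cd9 (0.760 to 1.45), 1.1 for Itga2b (0.595 to 2.25) and 0.882 for Gng11 (0.593 to 1.36). Clec1b at 0.638 (0.363 to 1.21) and Rap1b at 0.588 (0.333 to 1.12) were on the other side. These intervals do not show that the levels were alike. The platelet lists summed gave a ratio of 1.14 (1.02 to 1.28). With haemoglobin and mitochondrial UMIs left out it was 1.03 (0.925 to 1.16), an interval that holds 1.

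Outside the platelet lists, the genes that differed were mostly mitochondrial or markers of other cells. The 8 lower genes were 7 mitochondrial genes, at 0.17 to 0.444 of the wildtype level, and Cyb5a, a cytochrome, at 0.454 (0.235 to 0.959). Above 10% mitochondrial UMIs stood 3 of the 8 wildtype and 7 of the 65 mutant carriers. Higher in the mutant library were Cd74, the class II invariant chain (61 UMIs against 0), the globin Hbb-bs (95 against 0) and Lyz2 (4.44 times, 1.49 to 21.7). The actin gene Actg1 was 2.24 times (1.16 to 4.95) and the myosin light chain Myl6 2.21 times (1.36 to 3.83) the wildtype level.

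Without carriers above 10% mitochondrial UMIs, 58 mutant carriers with 28903 UMIs and 5 wildtype carriers with 1775 UMIs were left. Of 92 genes then measured, 3 were higher (3.26%) and 1 was lower (1.09%), and none of 28 platelet list genes had an interval leaving out 1. The lower gene was Arpc2 at 0.448 (0.230 to 0.974). The mitochondrial genes still measured had intervals holding 1. They stood at 1.01 for mt-Co1 and mt-Co3, 1.18 for mt-Atp6 and 1.35 for mt-Cytb. The limit was itself set on mitochondrial UMIs. The ratio of the summed lists became 0.955. Gp1bb was then at 2.58 times (0.863 to 12.7), Myl9 at 1.51 times (0.717 to 3.81) and Ctla2a at 1.47 times (0.948 to 2.39) the wildtype level.

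At 800 or more UMIs the carriers were not all platelets caught with leukocytes. Of 75 mutant carriers 20 had no partner, and of 21 wildtype carriers 2 had none. The 20 mutant barcodes held 811 to 2349 UMIs (median 1058.5), 42 to 141 of them Ppbp or Pf4, and had 13.7% to 20.9% platelet list RNA at a median of 18.0%. Malat1 took at most 0.444% of their UMIs. The 2 wildtype barcodes held 1114 and 1797 UMIs, 39 and 66 of Ppbp and Pf4, and 16.6% to 17.0% platelet list RNA. In these values they resembled the carriers below 800 UMIs. A mutant barcode of 1087 UMIs called monocyte-like was of the same kind, with 55 UMIs of Ppbp and Pf4, 16.6% platelet list RNA and 0 Malat1 UMIs, its class resting on Lyz2 for 8 of 9 marker UMIs. Near the split the numbers were 12 mutant and 1 wildtype carriers in the 100 UMIs below it and 3 and 1 in the 100 UMIs above.

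Taking carriers with no partner at any depth gave 79 mutant barcodes with 52655 UMIs and 10 wildtype barcodes with 5764 UMIs, a set chosen after seeing the data. Over the 79 mutant barcodes, Ppbp and Gng11 UMIs had a Spearman correlation of 0.694, and UMIs of Ppbp and Pf4 together one of 0.902 with platelet list UMIs. All these points are from 1 library and share its depth differences. In the mutant library 24 of 169 measured genes were higher (14.2%) and 14 lower (8.28%). Among 41 measured platelet list genes, 10 had an interval above 1, against 18.9% of all measured genes, and 2 had one below 1, Clec1b at 0.484 and Rap1b at 0.394.

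The wildtype barcode of 1797 UMIs, with 16 Ppbp and 50 Pf4 UMIs, made up 31.2% of the wildtype sum. Without it 164 genes were measured, of which 11 were higher and 8 lower, the lower ones being mitochondrial genes and Lmna. Of 40 platelet list genes 4 then had an interval above 1 and 0 below. The share of all measured genes with such intervals was not reckoned without that barcode. Clec1b then stood at 0.693 (0.461 to 1.08) and Rap1b at 0.75 (0.478 to 1.24). Gp1bb, the beta chain of the von Willebrand factor receptor, moved from 2.96 times (1.53 to 6.54) to 2.03 times (1.05 to 4.5). Myl9 was at 2.15 times (1.15 to 4.54) without that barcode and 2.09 times with it. Without that barcode the Clec1b and Rap1b ratios thus stayed below 1, and only their intervals came to hold 1. Carriers below 800 UMIs, which do not include it, stood at 0.638 for Clec1b and 0.588 for Rap1b, with intervals that held 1. Leaving it out also took 31.2% of the wildtype UMIs. Gp1bb and Myl9 kept intervals above 1 with and without it. Below 800 UMIs, without carriers of high mitochondrial share, their intervals held 1 (0.863 to 12.7 and 0.717 to 3.81).

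Carriers of 800 or more UMIs with leukocyte markers numbered 55 among mutant and 19 among wildtype barcodes. Their median depth was 3827 and 3557 UMIs, and platelet list genes took a median of 1.85% and 1.75% of it. Among the mutant ones 24 were monocyte-like, 13 T-like, 5 B-like, 3 dendritic-like, 2 basophil-like, 2 NK-like and 6 mixed. The wildtype ones were 11 monocyte-like, 3 T-like, 2 neutrophil-like, 1 B-like, 1 NK-like and 1 mixed. Monocyte-like barcodes were 32.0% of mutant and 52.4% of wildtype carriers of 800 or more UMIs, but 2.65% and 2.01% of all barcodes of that depth.

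The share of each class that carried platelet transcripts was highest among classes of over 100 barcodes in monocyte-like barcodes of both libraries. It was 21.8% (24 of 110, 14.5 to 30.7) in the mutant and 10.5% (11 of 105, 5.35 to 18.0) in the wildtype library. Lymphocytes do not make Ppbp and Pf4, so their share is used as the reference. Whether it came from free RNA, shared droplets or bound platelets was not tested. Among B-, T- and NK-like barcodes together it was 0.518% (20 of 3860, 0.317 to 0.799) and 0.102% (5 of 4901, 0.0331 to 0.238). Monocyte-like barcodes therefore carried 42.1 times (22.3 to 80.4) and 103 times (lower bound 32.9) the lymphocyte share. Taking any UMI of either gene, 45.5% of monocyte-like and 7.18% of lymphocyte-like barcodes of the mutant library were positive, and 17.1% and 1.90% in the wildtype library.

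Between the libraries the lymphocyte-like share was 5.08 times as high in the mutant (1.85 to 17.3). The monocyte-like share was 2.08 times as high (0.982 to 4.71), an interval that holds 1. T-like barcodes gave 0.546% (13 of 2381) and 0.106% (3 of 2832). Mixed barcodes, in which no list reached 2 times the next, gave 5.26% (6 of 114) and 0.578% (1 of 173). That call does not show that a barcode held more than 1 leukocyte. Neutrophil-like barcodes were 2 of 10 carriers in the wildtype library and 0 of 2 in the mutant library, and dendritic-like ones 3 of 5 (mutant) and 0 of 16 (wildtype). Those classes are too small to compare.

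**Figure D4:**
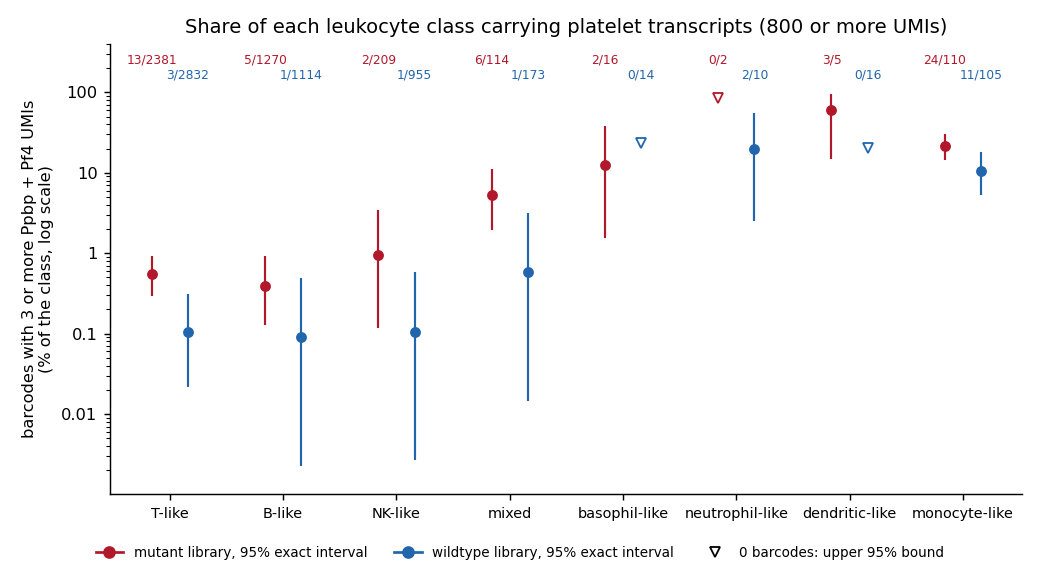
Share of barcodes of 800 or more UMIs (percent) that carried platelet transcripts, by marker class and library, with exact 95% binomial intervals and carriers over barcodes printed at the top; triangles mark the upper bound where no carrier was found. Monocyte-like barcodes stand at 21.8% and 10.5%, T-like at 0.546% and 0.106%.

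Depth differed between these classes. Monocyte-like barcodes had a median of 2863.5 (mutant) and 2215 UMIs (wildtype), their carriers 3935 and 4624, and lymphocyte-like barcodes 1934 and 2011. At 3000 or more UMIs, a limit chosen after seeing the data, 22 of 51 mutant monocyte-like barcodes were carriers (43.1%, 29.3 to 57.8) and 11 of 35 wildtype ones (31.4%, 16.9 to 49.3). Lymphocyte-like barcodes of that depth gave 9 of 445 (2.02%, 0.929 to 3.80) and 0 of 739, which allows up to 0.406%. The mutant ratio was then 21.3 (9.44 to 52.6). After thinning every barcode to 800 UMIs, 8.18% of mutant monocyte-like and 0.181% of lymphocyte-like barcodes were carriers, a ratio of 45.1 (15 to 143), while the wildtype library kept 1 monocyte-like carrier of 105 and 0 lymphocyte-like ones. Between 800 and 3000 UMIs, 2 of 59 mutant monocyte-like barcodes (3.39%) and 11 of 3415 lymphocyte-like ones (0.322%) were carriers, a ratio of 10.5 (1.13 to 48.2). In the wildtype library that range held 0 carriers of 70 monocyte-like barcodes, which allows up to 4.29%, and 5 of 4162 lymphocyte-like ones (0.120%). The higher monocyte share was thus seen in both libraries at 3000 or more UMIs. Below that depth neither library could show an order. The mutant share there rested on a barcode of 1087 UMIs and a barcode of 2215 UMIs. The first had 16.6% platelet list RNA and 0 Malat1 UMIs, and the second held 3 UMIs of Ppbp and Pf4. The wildtype barcodes were too few.

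Genes outside the rule were a weaker guide in these carriers, since leukocytes express many genes of the platelet lists. Monocyte-like carriers had a median platelet list share of 2.11% (mutant) and 1.75% (wildtype), and monocyte-like barcodes with 0 Ppbp and Pf4 UMIs had 1.83% and 1.84%. In lymphocyte-like barcodes the medians were 1.27% and 1.12% with and 0.575% and 0.599% without the chemokine genes. The 4 markers Gng11, Clec1b, Gp9 and Itga2b separated the sets further: at least 1 UMI of them was found in 21 of 24 and 6 of 11 monocyte-like carriers, against 7 of 60 and 10 of 87 barcodes without Ppbp and Pf4. Among lymphocyte-like barcodes the numbers were 15 of 20 and 5 of 5 carriers, against 173 of 3583 (4.83%) and 59 of 4808 (1.23%).

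Some carriers did not look like platelets on a leukocyte. In 4 monocyte-like carriers, 2 per library, Pf4 gave 26 to 36 UMIs and Ppbp 0. They were the only carriers with at least 5 UMIs of C1qa, a complement gene of macrophages, at 15 and 55 UMIs (mutant) and 17 and 30 UMIs (wildtype), and macrophages are known to make Pf4. Requiring a Ppbp UMI left the ratio of shares at 800 or more UMIs at 4.58. At the other end, 7 mutant and 0 wildtype carriers with a partner held at least 20 UMIs of both genes including Ppbp. Among these were 3 T-like barcodes with 46, 51 and 54 UMIs and a B-like barcode with 45, counts in the range of single platelet barcodes.

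Monocyte-like barcodes with a Ppbp UMI (22 mutant, 9 wildtype), a set chosen after seeing the data, were compared with those with 0 Ppbp and Pf4 UMIs (60 and 87). Of 692 genes measured in both libraries, 16 were higher (2.31%) and 20 lower (2.89%) in both. With all 24 and 11 monocyte-like carriers in place of these, 729 genes were measured, 16 higher (2.19%) and 26 lower (3.57%). Genes of classical monocytes, which leave the bone marrow through Ccr2, were among the higher ones. Ccr2 was at 666 against 209 CPM in the mutant library, 3.19 times (2.03 to 5.08), and at 892 against 272 CPM in the wildtype library, 3.28 times (2.11 to 5.03). Ly6c2, the surface antigen of classical monocytes and uncertain for its near-identical family, was 4.38 times (3.17 to 6.14) and 3.04 times (1.95 to 4.66) as high. Vim, the intermediate filament vimentin, was 2.94 and 2.61 times and the chemokine Ccl9 2.67 and 2.33 times as high.

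The lower genes included those of non-classical monocytes, which patrol vessels. Ear2, a ribonuclease of a family of similar genes and so uncertain, was at 0.166 (0.0772 to 0.316) and 0.115 (0.0310 to 0.299) of the level without platelet transcripts. Ace, the angiotensin-converting enzyme, was at 0.166 in the mutant library and gave 0 against 61 UMIs in the wildtype library. Itgal, the integrin chain of LFA-1 and a leukocyte binding partner of platelets, was at 0.278 and 0.115. Cd36, a scavenger receptor that platelets also carry, gave 0 UMIs with platelet transcripts in either library, against 61 and 70 UMIs without. Of 20 measured platelet list genes none was higher in both libraries and Cd36 was lower.

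**Figure D5:**
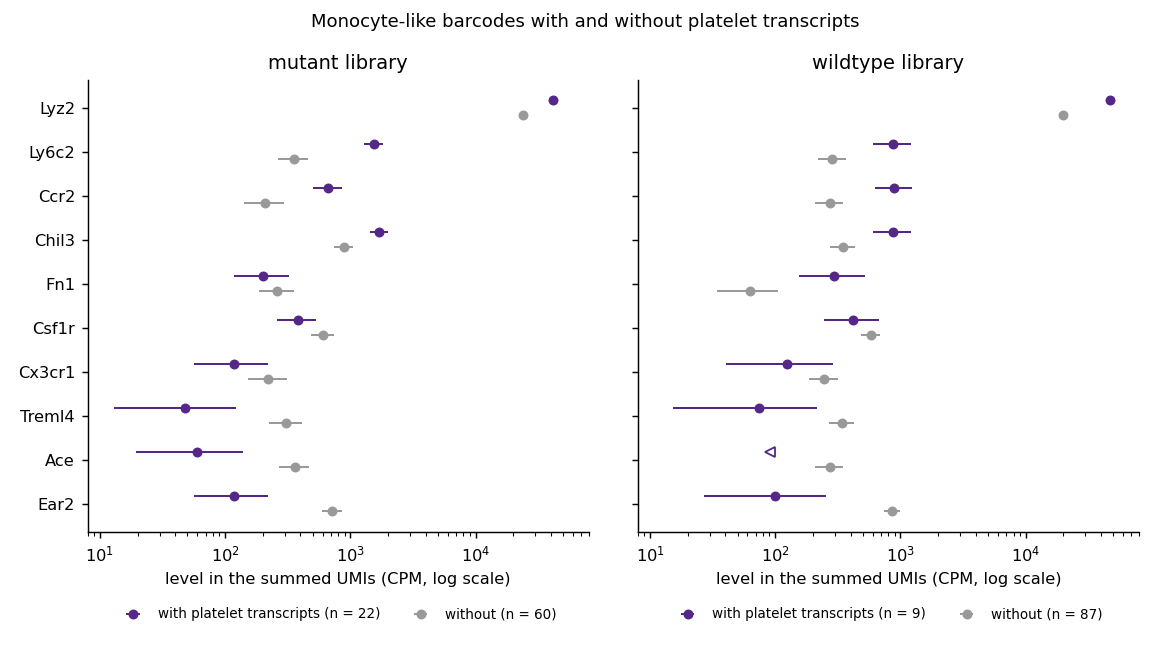
Level in CPM (log axis) of 10 monocyte genes in monocyte-like barcodes with a Ppbp UMI and in those with 0 Ppbp and Pf4 UMIs, by library, with exact 95% counting intervals; an open triangle is the upper bound where no UMI was found. Ccr2 and Ly6c2 lie to the right and Ear2 and Ace to the left with platelet transcripts, in both libraries.

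The 2 monocyte sets differed in depth, with medians of 3855.5 and 3821 UMIs with and 2163 and 2060 without platelet transcripts. At 3000 or more UMIs the medians were 3935 against 4004 in the mutant and 3821 against 4166 in the wildtype library. Ly6c2 was then 2.28 times (1.62 to 3.25) and 1.77 times (1.11 to 2.81) as high, and Ms4a4c, a gene of classical monocytes, 3.05 and 2.15 times. Chil3, another classical monocyte gene, stood at 1.30 times (0.989 to 1.70) and 1.16 times (0.75 to 1.76). Fn1, the fibronectin gene, went different ways, at 0.338 (0.176 to 0.619) in the mutant and 2.38 times (0.979 to 5.80) in the wildtype library. Ccr2 stood at 1.54 times (0.971 to 2.48) and 1.71 times (1.09 to 2.69). Ear2 was at 0.353 (0.111 to 0.979) and 0.397 (0.100 to 1.16). The ratios of Ly6c2, Ccr2 and Ear2 were thus nearer to 1 at matched depth, and those of Ccr2 in the mutant and Ear2 in the wildtype library no longer left out 1. Vim stood at 1.82 times (1.26 to 2.66) and 1.63 times (1.16 to 2.27), and both intervals left out 1. Ace stood at 0.206 (0.0373 to 0.764) in the mutant library, from 3 against 12 UMIs. In the wildtype library Ace gave 0 against 20 UMIs, with an interval below 1. Treml4 stood at 0.412 (0.0908 to 1.54) and 0.510 (0.0940 to 1.83), intervals that held 1. Cd36 at that depth gave 0 against 19 UMIs in the mutant library, with an interval below 1. In the wildtype library it gave 0 against 5 UMIs, and that interval held 1. The lower Cd36 was thus kept at matched depth in the mutant library only. Of the leukocyte surface molecules that platelets bind, Selplg, the P-selectin ligand, stood at 1.49 times (0.853 to 2.68) and 1.97 times (1.01 to 3.78). The chains of the integrin Mac-1 stood at 0.618 (0.267 to 1.39) and 1.36 times (0.495 to 3.48) for Itgam and at 0.655 (0.395 to 1.08) and 1.27 times (0.647 to 2.41) for Itgb2.

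A split of monocyte-like barcodes by which markers gave more UMIs, chosen after seeing these genes, put the same pattern as shares. Of barcodes with more Ccr2, Ly6c2 and Chil3 UMIs, 17 of 47 in the mutant (36.2%, 22.7 to 51.5) and 8 of 28 in the wildtype library (28.6%, 13.2 to 48.7) held platelet transcripts with a Ppbp UMI. Of those with more Ear2, Ace and Treml4 UMIs, 3 of 54 (5.56%, 1.16 to 15.4) and 1 of 73 (1.37%, 0.0347 to 7.40) did. At 3000 or more UMIs the mutant shares were 50% (17 of 34, 32.4 to 67.6) against 16.7% (2 of 12, 2.09 to 48.4). The wildtype shares were 34.8% (8 of 23, 16.4 to 57.3) against 11.1% (1 of 9, 0.281 to 48.2). The intervals overlapped in both libraries at that depth.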

How the data were processed

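The deposited files hold raw UMI counts per gene and barcode for 27998 genes. Per the submitters' processing notes they were made with Cell Ranger 2.1.1 on mm10. How reads of near-identical or overlapping genes were assigned is not given in the sources used here. All columns were used (0 left out). Barcodes were selected by the stated rule, and UMIs were summed per group of barcodes, scaled to CPM and compared with exact Poisson, Clopper-Pearson and conditional intervals (Python 3.11.15, scipy 1.17.1). Doublets were not removed, since barcodes holding more than 1 cell are a subject here. Partner classes are marker-based: 4 mutant and 0 wildtype carriers lay near the class limit. Genes were named by rule: the 6 markers and Mvk, at most 10 genes of each platelet list by UMIs, the 15 leading genes, at most 10 genes per direction between the libraries, and at most 4 of every other list. The members, gene lists and rules were chosen with earlier results of these data known. Most barcode sets and limits singled out after their values were seen are marked where they are used. Also chosen after seeing the data were the demand for a Ppbp UMI and the removal of the deepest wildtype barcode with no partner. So were the limits on C1qa UMIs and on high Ppbp and Pf4 counts in carriers with a partner. Genes given outside the naming rule include Cd36, C1qa, Selplg and Itgam. The monocyte genes Ccr2, Ly6c2, Chil3, Vim, Ccl9, Ms4a4c, Ear2, Ace and Treml4 were also outside it. So were Rab27b, Rhoa, Vwf, Itgb3, Gp1ba, Selp and Tubb1. A few genes of the lists are not reported here. Gene positions are from GENCODE vM21 (GRCm38). The intervals were first tested on simulated counts. Alternatives varied the UMI minimum of both genes, the depth split, haemoglobin, mitochondrial, free RNA and class limits, and thinning. Barcodes of 1 pool are not replicates.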

Additional observations from a re-analysis of the deposited data

How the results depend on the processing

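Over 9 results and 20 alternatives (14 planned, the others chosen after seeing the data), 59 of 90 values kept their direction and stayed within the counting interval or, for counts of genes, within 1.5 times the reported value, 29 moved beyond that and 2 reversed. The ratio of shares below 800 UMIs ran from 2.48 to 6.52 and that at 800 or more from 3.68 to 7.98, the highest after thinning to 800 UMIs. The ratio of monocyte-like to lymphocyte-like shares ran from 23.4 to 60.6 in the mutant and 46.7 to 210 in the wildtype library, with 21.3 for mutant barcodes of 3000 or more UMIs. The summed platelet list share below 800 UMIs (mutant, then wildtype; 13.7% and 12% as reported) was 12.9% and 7.95% with a minimum of 2 UMIs, 15.2% in both with 5, 12.1% and 10.6% with a split at 500 UMIs, 14.9% and 8.65% at 1200, 15.2% and 15.9% at up to 10% mitochondrial UMIs, 16.2% and 14.4% in barcodes with no partner, and 14.9% in the mutant after free RNA was subtracted. The summed list ratio was 1.62 with a minimum of 2 UMIs and 1.72 with a split at 1200. It was 1.14 (0.989 to 1.32) with a split at 500 and 1.03 (0.925 to 1.16) without haemoglobin and mitochondrial UMIs. The ratio turned to 0.998 with a minimum of 5 and to 0.955 at up to 10% mitochondrial UMIs. The cause was not tested. Genes higher in the mutant numbered 23 with a minimum of 2 UMIs, 4 with 5, 3 with a split at 500, 33 at 1200, 3 at up to 10% mitochondrial UMIs, 4 without haemoglobin and mitochondrial UMIs and 24 in barcodes with no partner. Lower genes numbered 1 with a minimum of 5, 1 at up to 10% mitochondrial UMIs, 2 without haemoglobin and mitochondrial UMIs, 13 with a gene minimum of 20 UMIs and 14 with no partner. No wildtype class ratio could be had with a minimum of 5 UMIs, after thinning, or at 3000 or more UMIs, where 0 lymphocyte-like carriers were left, and no class had 20 carriers in each library, so at least 10 was used. No paired analysis was possible because there was 1 library per genotype with no replicate numbers, and for the same reason no replicate could be left out. Wildtype values below 800 UMIs rest on 2853 UMIs in 8 carriers.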

Other observations

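Barcodes with at least 100 but fewer than 200 UMIs, below the minimum used, held more of the same kind: at least 3 UMIs of Ppbp and Pf4 were found in 90 mutant and 30 wildtype barcodes. Their platelet list share had medians of 11.6% and 13.3%, at 129.5 and 126.5 UMIs per barcode. Barcodes above 50% haemoglobin with at least 3 UMIs of both genes came to 3 mutant and 0 wildtype barcodes. Retnla, a secreted protein of myeloid cells, gave 8 UMIs in 24 mutant and 0 in 11 wildtype monocyte-like carriers, and 201 and 42 UMIs in 60 and 87 monocyte-like barcodes with 0 Ppbp and Pf4 UMIs.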
